A study of Arabidopsis thaliana with 12 samples.

Results

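Genes for nuclear transcription and chromatin regulators were compared between the flu mutant and wild type (WT) of Arabidopsis thaliana: LAS, SPL, AGL26, AT4G03090, DME, chr31 and IYO. They are 7 of the 691 genes on these arrays that have a probe tied to them alone by the platform annotation, and each of the 7 has 1 such probe. They were chosen from the same flu and WT arrays: 4 of them (LAS, SPL, DME and IYO) passed an adjusted p of 0.05 in the fit of flu against WT, and the other 3 passed it when same-numbered arrays were treated as a block. The differences between flu and WT are therefore given as a description of these genes, with no test. For reference, 38.9% of all tested probes passed the first fit and 43.8% the fit with the block, so passing was common and nothing is read from the share of these genes that did.

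The flu plants lack FLU, a regulator of chlorophyll synthesis in the plastid, so that the mutant builds up a light-sensitive chlorophyll precursor at night and forms singlet oxygen when light returns. Per the labels, the 6 flu arrays and the 6 WT arrays all hold total RNA from the Landsberg ecotype, collected 30 min into light that followed 12 h of darkness. Since each group was sampled at that time alone, a difference between the groups cannot be dated to before or after the return of light. The labels name no plant part and no age, and the marker lists for leaf, shoot meristem, flower, root, and pollen and anther had 0 measured genes, so the tissue was not checked. The annotation lists 0 probes for FLU, so the genotype was not checked on its transcript either.

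Each array gave 3439 deposited intensities on a linear scale in arbitrary units. The array sums lay between 3247 and 3350, and the array medians were 0.426 to 0.442 in flu and 0.443 to 0.491 in WT. The arrays were quantile normalised, values below the 25th percentile (0.250) were set to it, and the values were put on the log2 scale. Arrays 1 and 2, 3 and 4, and 5 and 6 of a group resembled each other more than other arrays of that group, and may be repeats of 1 sample. Their mean on the log2 scale was used as 1 replicate, which gave 3 pair means per group. Nothing in the sources used here says whether arrays came from separate plants, so errors cover the spread between arrays, which may be technical. In total RNA, fewer cells that express a gene and less RNA per cell cannot be told apart.

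Many developmental regulators act in few cells at set stages. LAS is a GRAS-family protein needed to form axillary meristems, and SPL, also called NOZZLE or SPOROCYTELESS, is needed to start spore formation in anthers and ovules. AT4G03090 is listed in the gene table as NDX, a nodulin homeobox gene, and AGL26 is listed only as AGAMOUS-like, a name of the MADS-box family. Whether the AGL26 locus encodes a MADS-box protein was not checked, so it is counted among the developmental regulators by its name alone. The other 3 work on chromatin or on the transcription machinery. DME (DEMETER) is a DNA glycosylase that cuts methylated cytosine out of DNA and is best known for activating imprinted genes before fertilisation. The chr31 gene, listed as a chromatin remodelling gene and also known as CLASSY3, belongs to the SNF2-related CLASSY family, which brings RNA polymerase IV to chromatin for RNA-directed DNA methylation. IYO (MINIYO) associates with RNA polymerase II and promotes transcript elongation and the onset of cell differentiation.

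Intensities of 3 of the 7 genes were higher in flu (SPL, DME and chr31), and those of 4 were lower (LAS, IYO, AT4G03090 and AGL26). Among the 4 developmental regulators 1 was higher and 3 were lower in flu, with log2 differences from -1.22 to 0.91 and a median of -0.59. Without AGL26, 1 was higher and 2 were lower, with a median of -0.62. Among the 3 chromatin and polymerase-associated genes 2 were higher and 1 was lower, from -1.02 to 0.78, with a median of 0.51. The median over all 620 genes with a tested probe of their own was -0.04. Both sets thus held genes higher and genes lower in flu, and with 4 and 3 genes chosen by their differences the 2 medians only describe them. No gene of the 7 had pair means that overlapped between the groups, as for 50.5% of all tested probes. The 6 single arrays of each group did not overlap for LAS and DME, as for 34.7% of all tested probes.

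**Figure D1:**
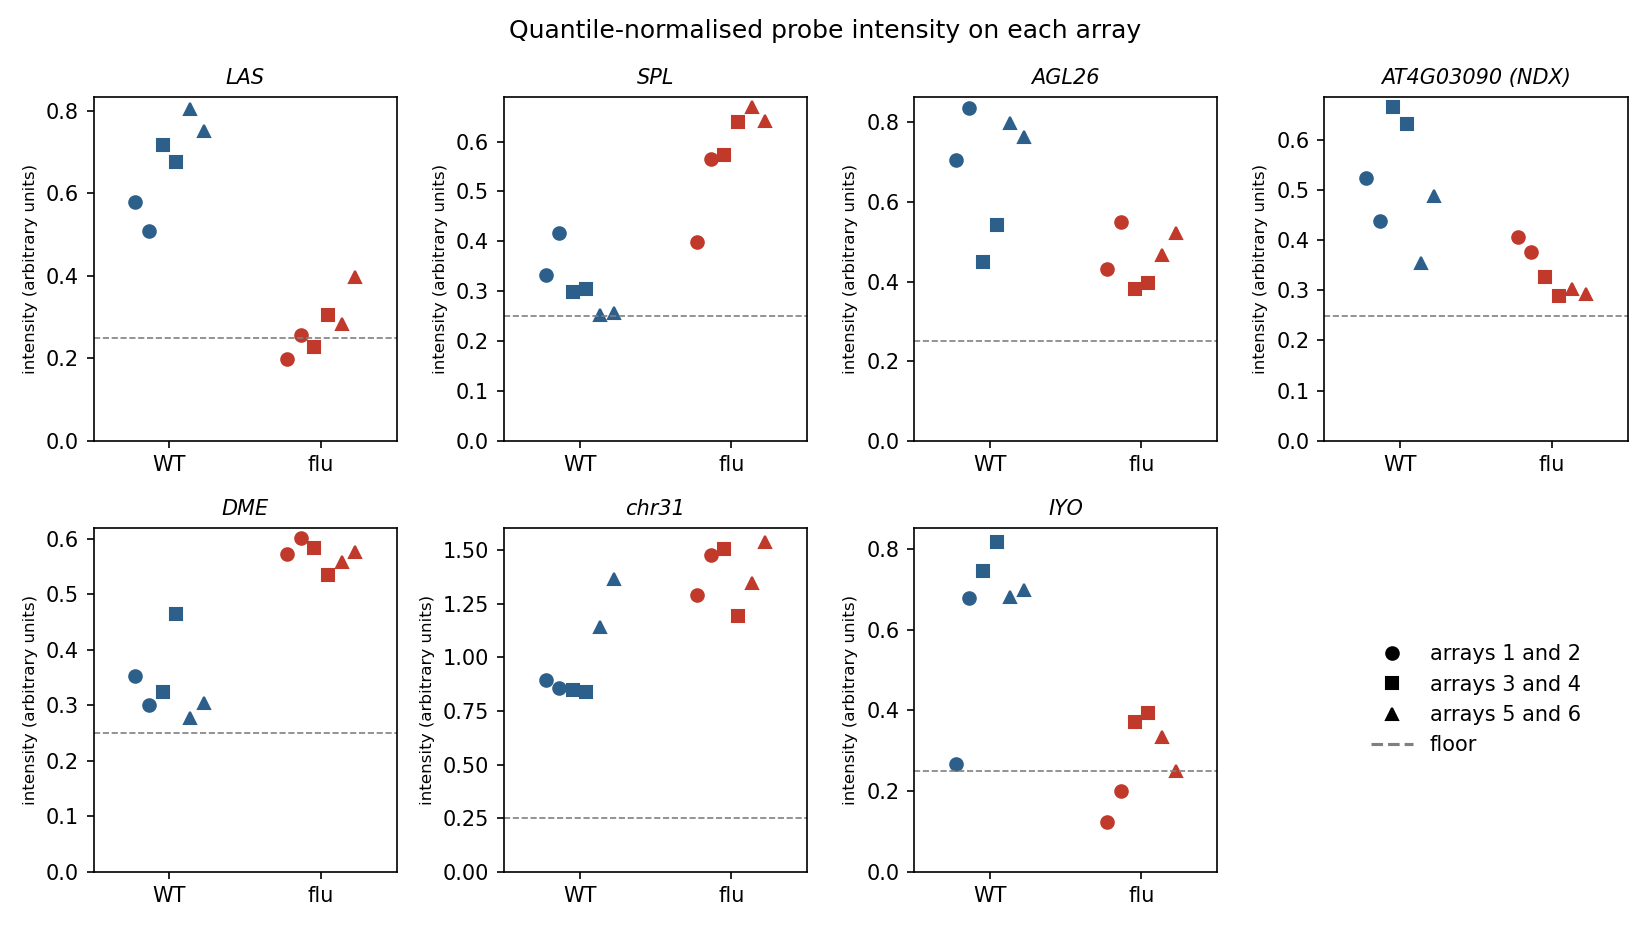
Quantile-normalised intensity (arbitrary units, linear axis from 0) of each gene's probe on the 6 WT arrays (blue) and 6 flu arrays (red); marker shapes show the pairs of arrays, and the dashed line is the floor of 0.250. LAS and DME show no overlap between groups, chr31 overlaps through WT array 6, and for IYO the lone low WT point is array 1.

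LAS had the widest log2 difference of the developmental regulators before the dependence on probe number, described further on, was removed, and AT4G03090 had it afterwards. The intensity of LAS ran from 0.199 to 0.397 over the 6 flu arrays, with a median of 0.270, and from 0.509 to 0.804 over the 6 WT arrays, with a median of 0.696. Every WT array lay above every flu array. The pair means were 0.253, 0.276 and 0.335 in flu and 0.543, 0.695 and 0.777 in WT, in the order of array numbers. The log2 difference was -1.22 (SE 0.18), or 2.32-fold lower in flu. On flu arrays 1 and 3 LAS was below the floor, so the size of this difference depends on it. With the floor at the 10th percentile, the log2 difference was -1.29.

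SPL stood at 0.578 ± 0.094 (SD) in flu and 0.309 ± 0.060 in WT over 3 pair means each, a log2 difference of 0.91 (SE 0.19). Its flu arrays ran from 0.398 to 0.670 with a median of 0.606, and its WT arrays from 0.251 to 0.416 with a median of 0.302. The groups met at 1 point, where flu array 1, at 0.398, lay below WT array 2, at 0.416. Same-numbered pairs differed by 0.35 for arrays 1 and 2, 1.01 for arrays 3 and 4, and 1.37 for arrays 5 and 6. The size of the difference was thus uneven over the 3 pairs. All 6 WT arrays were above the floor, arrays 5 and 6 only just, at 0.251 and 0.256.

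AT4G03090 (NDX), a homeobox gene, stood at 0.332 ± 0.051 (SD) in flu and 0.515 ± 0.120 in WT over 3 pair means each, a log2 difference of -0.62 (SE 0.20). Over single arrays it ran from 0.289 to 0.406 in flu, with a median of 0.314, and from 0.355 to 0.666 in WT, with a median of 0.506. WT array 5, at 0.355, was the only WT array inside the flu range. The 3 pairs differed by -0.29, -1.08 and -0.49, and the largest of these came from WT arrays 3 and 4, where AT4G03090 had its highest values.

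AGL26 stood at 0.457 ± 0.058 (SD) in flu and 0.681 ± 0.162 in WT over 3 pair means each, a log2 difference of -0.55 (SE 0.22). The highest flu pair mean of AGL26, at 0.493, and its lowest WT pair mean, at 0.494, were nearly equal. Its single arrays ran from 0.383 to 0.550 in flu, with a median of 0.449, and from 0.449 to 0.836 in WT, with a median of 0.735. WT arrays 3 and 4, at 0.449 and 0.543, lay inside the flu range, and the other 4 WT arrays lay above it. Those are the same 2 arrays on which AT4G03090 was highest. Apart from this probe, 1 probe lists AGL26 together with 3 other genes and was not used.

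DME had the narrowest pooled spread between pair means of the 7 genes. Its intensity lay between 0.535 and 0.602 on the flu arrays, with a median of 0.574, and between 0.277 and 0.464 on the WT arrays, with a median of 0.315. Every flu array lay above every WT array. The pair means were 0.588, 0.559 and 0.566 in flu and 0.326, 0.388 and 0.290 in WT. The log2 difference was 0.78 (SE 0.14), or 1.72-fold higher in flu. The WT intensities of DME lay not far above the floor of 0.250, so the size of this fold depends on how low values are treated. With 0.250 added to each intensity in place of the floor, the log2 difference was 0.49. The SD of the DME pair means on the log2 scale was 0.037 in flu and 0.210 in WT.

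The chr31 probe stood at 1.39 ± 0.050 (SD) in flu and 0.989 ± 0.225 in WT over 3 pair means each, a log2 difference of 0.51 (SE 0.17). It ran from 1.19 to 1.54 over the flu arrays, with a median of 1.41, and from 0.837 to 1.37 over the WT arrays, with a median of 0.876. WT arrays 1 to 4 lay between 0.837 and 0.896, below every flu array, while WT arrays 5 and 6 stood at 1.14 and 1.37, the second of them inside the flu range. The pair differences were 0.66, 0.67 and 0.21. Without WT arrays 5 and 6, a choice made after seeing the data, the log2 difference was 0.69. That was the highest of the 6 fits that left out a pair, and the lowest was 0.41, without WT arrays 3 and 4. As with DME, the spread between pair means of chr31 was narrower in flu, at a log2 SD of 0.052, than in WT, at 0.312; whether the spreads differ was not tested.

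IYO stood at 0.307 ± 0.068 (SD) in flu and 0.632 ± 0.185 in WT over 3 pair means each, a log2 difference of -1.02 (SE 0.28), or 2.02-fold lower in flu. Its flu arrays ran from 0.123 to 0.393, with a median of 0.293, and flu arrays 1 and 2 were below the floor. The pair mean of flu arrays 1 and 2 was thus the floor itself, 0.250, and the flu mean and SD depend on that floor. The WT arrays of IYO ran from 0.266 to 0.818, with a median of 0.689. WT array 1, at 0.266, fell inside the flu range, and its partner, array 2, stood at 0.680 with the other 4 WT arrays. Without WT array 1, a choice made after seeing the data, the log2 difference was -1.24, and with the floor at the 10th percentile it was also -1.24. The pooled SD of the IYO pair means, 0.395 on the log2 scale, was the widest of the 7, against 0.151 for DME and a median of 0.229 over all tested probes.

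**Figure D2:**
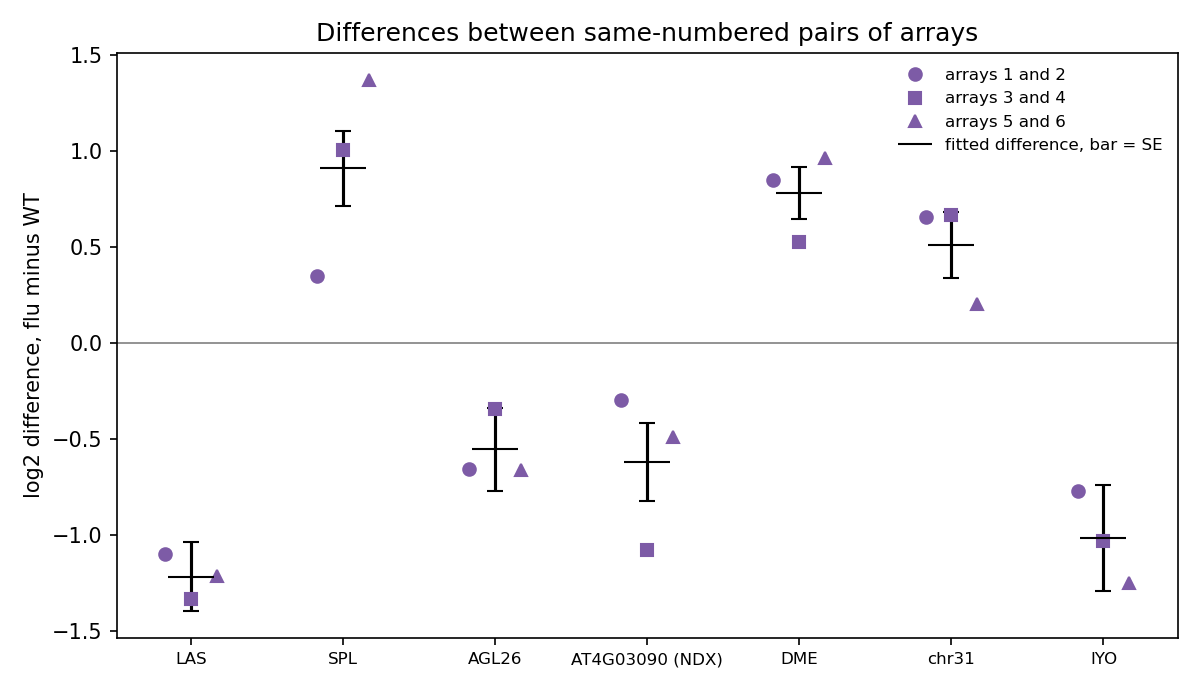
Log2 difference, flu minus WT, for each same-numbered pair of arrays (purple markers) and the fitted difference with its SE (black) for each gene. All 3 pairs lie on the same side of 0 for each of the 7 genes, which follows from pair means that do not overlap between groups. SPL spreads from 0.35 to 1.37, while LAS stays between -1.33 and -1.10.

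The differences on these arrays depend on the position of a probe in the numbering, by a repeating period that an earlier analysis chose on these same differences. Each difference is therefore set beside those of other probes at like positions, and the part of this dependence in the results was not tested beyond the values given here. For each gene, the tested probes within 3 positions of it in the repeat were taken as neighbours. LAS had 67 neighbours with a mean log2 difference of -0.46 ± 0.61 (SD), on the same side as LAS itself, and 8 of them were lower than LAS. SPL (0.31 ± 0.67 over 71 neighbours) and DME (0.27 ± 0.65 over 65) also stood among probes that were on average higher in flu, and 14 and 18 neighbours were higher than SPL and DME.

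IYO, AT4G03090 and chr31 stood on the side opposite to their neighbours. The 72 neighbours of IYO averaged 0.32 ± 0.78, and 0 of them were as low as IYO. The 74 neighbours of AT4G03090 averaged 0.22 ± 0.64, and 4 of them were lower. The 66 neighbours of chr31 averaged -0.24 ± 0.67, and 8 were higher. AGL26 was the closest to its surroundings: its 79 neighbours averaged -0.35 ± 0.66, and 30 of them were lower than AGL26.

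**Figure D3:**
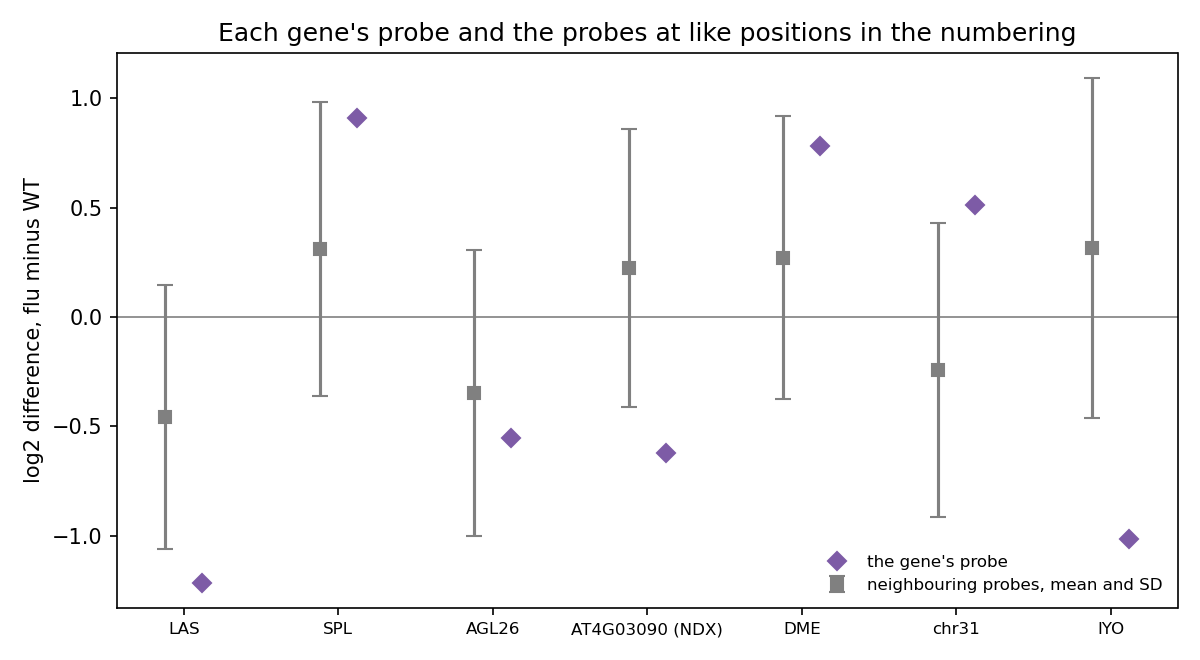
Log2 difference, flu minus WT, of each gene's probe (purple) beside the mean and SD of the tested probes within 3 positions of it in the repeating numbering (grey). IYO, AT4G03090 and chr31 lie on the side of 0 opposite to their neighbours' mean, and AGL26 lies near it.

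With the mean of the neighbours subtracted on each array, all 7 genes kept their direction. The log2 differences became -1.33 for IYO, -0.85 for AT4G03090, -0.76 for LAS, -0.21 for AGL26, 0.51 for DME, 0.60 for SPL and 0.75 for chr31. The size thus moved by over 1.5 times for LAS, SPL, DME and AGL26, which came closer to 0. It grew for chr31, IYO and AT4G03090. The median of the developmental regulators was -0.48 and that of the other 3 genes 0.51. SPL passed the threshold in the first fit but not with the dependence removed, and AT4G03090 and chr31 the reverse, so that 5 of the 7 passed. Of all tested probes, 37.2% passed with the dependence removed.

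**Figure D4:**
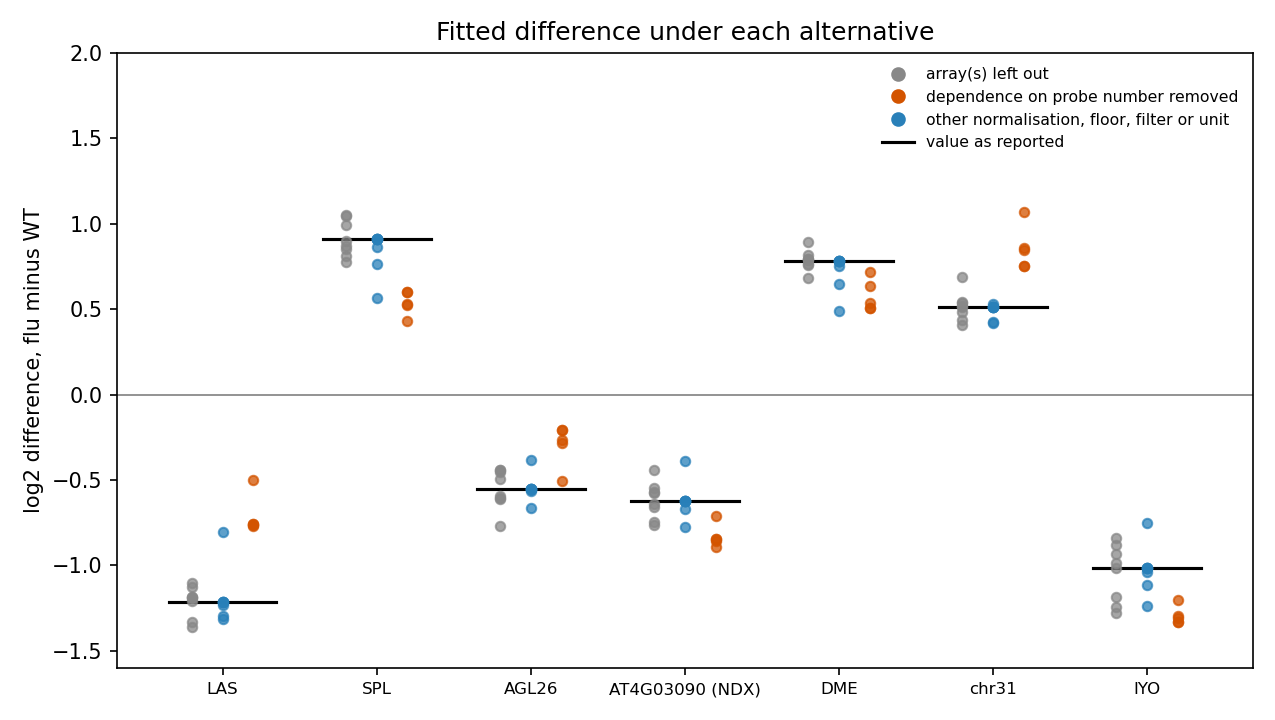
Log2 difference, flu minus WT, of each gene under each alternative: arrays left out (grey), other normalisation, floor, filter or replicate unit (blue), and dependence on probe number removed (orange), with the reported value as a black line. No point crosses 0, which was fixed in advance where a pair was left out or where only the replicate unit, block or filter changed. The orange points move LAS, SPL, DME and AGL26 toward 0 and IYO, AT4G03090 and chr31 away from it.

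Few other nuclear regulators were found by name. The gene table holds symbols and synonyms but no descriptions, so a search of its words can miss regulators, and it did miss LAS and SPL. Such searches for transcription factor families, chromatin and DNA methylation, and RNA polymerase II found 9 genes among the single-gene probes, of which 5 are described above (AGL26, AT4G03090, DME, chr31 and IYO). Of the other 4, the histone H3.1 gene AT5G65360 was at the floor on all arrays and was not tested. The remaining 3 were tested, with a median log2 difference of -0.31. By limma 0 of these 3 passed, and 0 had an unadjusted p under 0.05. Since the genes described above were chosen by passing, that count was set in part by the choice, and nothing is read from it. Among all 8 tested genes found by these searches, 1 passed higher and 1 lower in flu by limma, beside 36.8% of all 620 genes. The AGAMOUS-like genes AGL103 and AGL54 had log2 differences of 0.37 (SE 0.26, limma adjusted p = 0.314) and -0.31 (SE 0.18, limma adjusted p = 0.243). AT1G09200, another gene for histone H3.1, which packages newly copied DNA, stood at 0.274 ± 0.042 (SD) in flu and 0.374 ± 0.108 in WT over 3 pair means each. Its log2 difference was -0.42 with an SE of 0.23 (limma adjusted p = 0.203). It passed at -0.79 with the dependence on probe number removed (limma adjusted p = 0.039). Histone H3.1 is encoded by several nearly identical genes, so its probe may not tell them apart.

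The symbol lists for known partners held no further measured gene. DME and chr31 were the 2 measured members of the list for DNA demethylation and RNA-directed DNA methylation, LAS the 1 of the axillary and shoot meristem list and SPL the 1 of the sporogenesis list. Of the 3 tested genes just named, AT1G09200 came nearest to the threshold by which the 7 genes were chosen, with an adjusted p of 0.065 by limma with the replicate block. Just inside that threshold was AT4G03090, at 0.0497.

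The genes whose log2 levels over the 12 arrays were most like each of the 7 were found among 613 other genes with a probe of their own. These correlations describe 12 arrays that share the difference between flu and WT, and genes that differ in the same direction correlate through it. For LAS the closest were AT1G21660 (Pearson r = 0.976), LpxA (0.975) and AT1G28150 (0.966). For DME they were AT1G51080 (0.948), AT1G76050 (0.945) and AT4G35660 (0.941), and for SPL AT3G32930 (0.955), AT4G24930 (0.927) and PRA1.B6 (0.915). AGL26 was closest to AT1G05340 (0.935), AT4G02040 (0.924) and GLR2.7 (0.923). For AT4G03090 the closest were SPPA (0.914), AT3G54550 (0.889) and AT5G03900 (0.848), and for chr31 AT1G55440 (0.916), AT3G22150 (0.904) and AT2G46050 (0.894). IYO had the weakest likeness, with AT4G05030 (0.854), AT3G12930 (0.853) and AT1G69910 (0.852).

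Among the 7 genes themselves, LAS and DME ran most nearly opposite over the 12 arrays (Pearson r = -0.875), and LAS and SPL next (-0.852). With the mean of each group subtracted, these became -0.15 and -0.19. Within groups the widest values among all pairs of the 7 were 0.66 for AT4G03090 with DME and -0.61 for AT4G03090 with AGL26. Both are over 12 arrays that include repeats. The dependence on probe number was not removed from these values. In the repeat of the numbering AT4G03090 and DME lie near each other, at positions 185 and 191, and the part of this in their correlation was not tested. On WT arrays 3 and 4 AT4G03090 and DME had their highest WT pair means and AGL26 its lowest.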

How the data were processed

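Total RNA of 6 flu and 6 WT arrays was measured. The deposited table holds 1 intensity per probe and array; how the authors scanned, background-corrected and scaled these intensities is not stated in the sources used here. Groups and array numbers come from the sample titles.

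Intensities were quantile normalised, floored at the 25th percentile (0.250) and log2 transformed, and 3128 probes were tested, leaving out 311 that never exceeded the floor. Arrays 1 and 2, 3 and 4, and 5 and 6 were averaged within a group, since their deviations from the group mean correlated at 0.21 to 0.68, against -0.55 to -0.04 for other arrays of the group. Same-numbered pair means of flu and WT also deviated together (0.26 to 0.46), so the numbers may pair the samples. This comes from the data, not a label. The fit of these means used limma 3.58.1 under R 4.3.3 (functions lmFit and eBayes, group only, two-sided, Benjamini-Hochberg over the 3128 probes, threshold 0.05). The SEs in the text come from this fit, which leaves out any pairing by number. With same-numbered pairs as a block, the SE was 0.12 for LAS, 0.13 for AGL26, 0.14 for IYO and 0.15 for chr31. It was 0.19 for AT4G03090, 0.14 for DME and 0.22 for SPL. The script was tested on simulated data in which only bright probes changed and differences did not depend on probe number. That test therefore does not cover genes near the floor or the dependence on probe number. The number of arrays limits the precision.

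Gene names come from the platform annotation deposited at GEO, possibly outdated, and from the TAIR10.1 gene table: 692 probes have 1 gene, 870 several and 1877 none listed. Of the 692, 690 matched the table. Probes with several genes were left unnamed. The 7 genes and all lists were chosen with earlier results of these data known. Named besides the 7 are the genes of each list that passed, or else the 2 with the smallest p, and the 3 most correlated genes for each of the 7; AGL54, AGL103, AT1G09200 and AT5G65360, outside that rule, were named after their values were seen, to complete small lists. Alternatives changed the normalisation, floor, filter, replicate unit, block and dependence on probe number, or left out arrays.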

Additional observations from a re-analysis of the deposited data

Results flagged for a closer look

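For IYO in WT, array 1 stood apart from the other 5 arrays: on the log2 scale its gap to the nearest array was 0.835 of the whole range of the group. Its intensity was 0.266, against 0.680 on array 2, its partner. For SPL in flu, array 1 stood apart in the same way, with a gap of 0.675 of the range, at 0.398 against 0.565 on array 2. Without flu array 1, a choice made after seeing the data, the log2 difference of SPL was 0.99. These are 2 of 14 groups examined. Chance sets about 1 in 20 groups of independent arrays apart, and since the arrays may be repeats in pairs, that rate is only a guide here.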

How the results depend on the processing

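All 7 genes kept their direction under the alternatives run. For many of these that was fixed in advance, so it is no sign of stability. Taking the arrays as separate, adding the block or changing the filter leaves the log2 difference itself unchanged. With pair means that do not overlap between groups, leaving out a pair cannot turn the direction. Over the 13 that left out no array, log2 differences ranged from -1.31 to -0.50 for LAS, 0.43 to 0.91 for SPL, -0.67 to -0.21 for AGL26, -0.89 to -0.39 for AT4G03090, 0.49 to 0.78 for DME, 0.42 to 1.07 for chr31 and -1.33 to -0.75 for IYO. The genes were chosen by the threshold of this contrast, so counts of passing describe how the choice depends on the setting and are no sign of stability; of all tested probes, 30.6% to 55.4% passed over these 13. DME passed the threshold in all 13 and LAS in 12, missing it when the median of the 12 probe numbers to each side was subtracted (-0.50, limma adjusted p = 0.051). IYO passed in 12, missing it with no filter on dim probes (limma adjusted p = 0.065), and SPL in 8. AT4G03090 passed in 10, chr31 in 7 and AGL26 in 4. When 1 pair of arrays was left out in turn (6 ways), 26.9% to 41.5% of all tested probes passed; DME and LAS passed in all 6, SPL in 4, IYO in 2, and AGL26, AT4G03090 and chr31 in 1 each. SPL missed it without flu arrays 3 and 4 or 5 and 6 (0.87 and 0.81). IYO missed it without flu arrays 1 and 2 or 5 and 6 (-0.88 and -0.99) and without WT arrays 3 and 4 or 5 and 6 (-0.84 and -0.93). AGL26 passed without WT arrays 3 and 4 (-0.77), and AT4G03090 and chr31 without WT arrays 5 and 6 (-0.76 and 0.69). The cause was not tested.

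The count of probes past the threshold was 1216, and 1371 with the replicate block, which also let AGL26, AT4G03090 and chr31 pass (limma adjusted p = 0.025, 0.0497 and 0.045) and changed no other call among the 7 genes. It was 1732 with the 12 arrays taken as separate, 840 to 1299 with a pair of arrays left out, and 1180 and 1187 without WT array 1 and flu array 1. With the dependence on probe number removed 1163 passed, 803 of them shared with the 1216 in the same direction. Of the 3 other nuclear regulators, 1 passed with that dependence removed, also with the replicate block, and that is AT1G09200; 0 passed with windows of 6 and 12 positions. The dependence was removed with a period chosen on these data. Intensities near the floor, as for LAS and IYO in flu, limit the size of the folds.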
